A study of Mus musculus with 6 samples.

Results

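Transcripts of cholesterol synthesis and of its control by SREBP2 were compared between 2 kinds of clone of 4T1, a mouse mammary carcinoma line, here labelled with the strain BALB/C. The genes were a list of 28 with known functions in the pathway, drawn up with earlier results of these data known. All 28 had a row among the 19179 genes of the tables. They fall into 9 genes from acetyl-CoA to isoprenyl diphosphates, 11 from squalene to cholesterol, 4 for SREBP2 and its regulators, 2 for sterol transport and storage, and 2 for the nuclear receptor LXR and the turnover of lipoprotein receptors.

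Cells make cholesterol from acetyl-CoA through mevalonate, the isoprenyl diphosphates and squalene, and the isoprenyl diphosphates also feed protein prenylation, dolichol and ubiquinone. SREBP2 is a transcription factor held in the endoplasmic reticulum membrane by SCAP and the INSIG proteins while sterols are plentiful. When sterols fall, SCAP carries it to the Golgi, where it is cleaved and released to the nucleus. Its known targets include most genes of the pathway and Insig1 itself, and proliferating tumour cells are known to rely on the pathway for membranes.

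The study grew clones in 96-well plates from wells that each received 1 cell and took them for RNA after 14 days. Messenger RNA was sequenced in 3 libraries of clones carrying the tissue label breast cancer stem cell, here called stem-labelled, and in 3 of clones with the label breast cancer cell, here called other, and neither kind has a stated treatment or genetic change. The labels speak of 10 clones of each kind and of 3 batches from 3 independent experiments, but do not say how many clones went into a library or what made a clone one kind. A library is therefore a bulk sample in which fewer cells that express a gene and less RNA per cell cannot be told apart, and the p-values measure the spread between these libraries.

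The level of a gene is its RPKM, the reads per length of gene on a common library size. Reads in genes ranged from 21196572 to 22838870 in the stem-labelled libraries and from 15357608 to 16830762 in the other libraries. As a ratio to the library size used by the authors, these reads came to 0.658 to 0.757 for stem-labelled and 1.23 to 1.53 for other libraries, so the scale itself differs between the groups. The epithelial markers Krt8 and Krt18 stood at 298 RPKM or more in every library. Krt19 stood at 0.0379 to 9.49 RPKM in the stem-labelled and 16.7 to 96.1 RPKM in the other libraries. Cldn7 stood at 0.0180 to 0.175 RPKM in the stem-labelled libraries, and at 0.560, 0.536 and 29.0 RPKM in the other libraries. The summed level of the 6 epithelial markers was 913 to 1400 RPKM in the stem-labelled and 1872 to 3493 RPKM in the other libraries, a sum carried by Krt8 and Krt18, and its part in the results below was not tested. Cdh1 went the other way, at 59.8 to 77.8 RPKM in the stem-labelled and 13.7 to 17.5 RPKM in the other libraries, and Epcam overlapped, at 50.2 to 59.8 RPKM in the stem-labelled and 53.5 to 58.5 RPKM in the other libraries. Of the leukocyte, endothelial and fibroblast markers with a row, Ptprc, Pecam1, Kdr and Dcn were at or below 0.0635 RPKM in every library. Cd79a stood at 0.0679 to 0.171 RPKM in the stem-labelled and 0.0552 to 0.409 RPKM in the other libraries, and Lyz2 at 0.111 to 0.319 RPKM in the stem-labelled and 0 to 0.127 RPKM in the other libraries. The macrophage marker Cd68 stood at 12.2 to 39.9 RPKM in the stem-labelled and 6.08 to 29.3 RPKM in the other libraries. Pdgfra, a fibroblast marker, stood at 1.64 to 3.34 RPKM in the stem-labelled and 0.396 to 0.929 RPKM in the other libraries.

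Each change is the difference of mean log2(RPKM + 1), stem-labelled clones minus other clones, ± its standard error, with an adjusted p from limma over 10097 tested genes. A gene was tested if it reached 1 RPKM in at least 3 of the 6 libraries, which 26 of the 28 pathway genes did, and was called at an adjusted p under 0.05. Of the 26 genes, 15 were called: 8 were higher in stem-labelled clones (30.8%) and 7 were lower (26.9%), while 11 did not pass. Of all tested genes, 55.2% were called, 29.9% higher and 25.4% lower, so the share of pathway genes called is near that of the transcriptome. The median change was 0.17 over the 26 genes and 0.11 over all tested genes. Genes of the pathway thus moved in both directions.

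**Figure D1:**
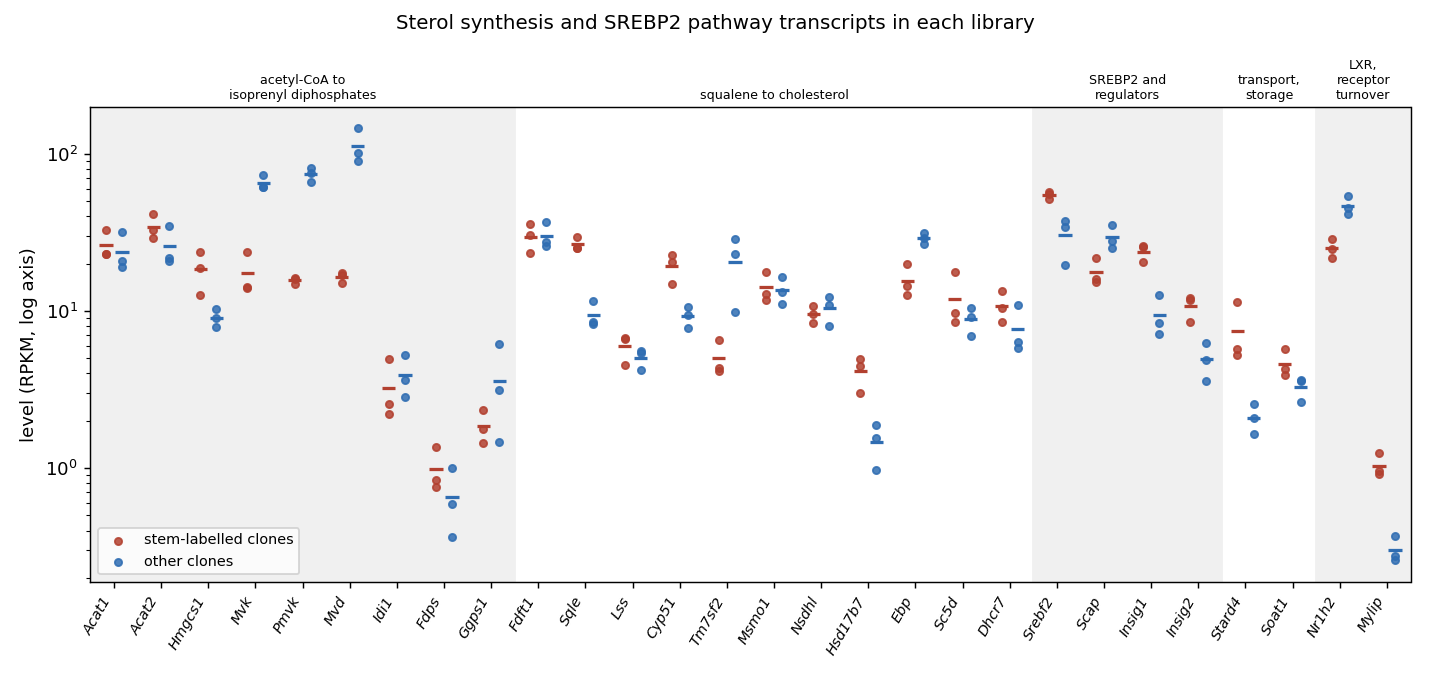
Level of each of the 28 transcripts in RPKM (log axis) in the 3 stem-labelled and the 3 other libraries, with points for libraries and bars for group means, in the order of the pathway. Mvk, Pmvk and Mvd lie at 14.1 to 23.9 RPKM in the stem-labelled libraries and at 61.2 to 145 RPKM in the others, while Sqle, Insig1, Insig2 and Stard4 lie higher in the stem-labelled libraries.

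The genes of the early pathway moved apart. Hmgcs1, the cytosolic synthase that makes HMG-CoA, rose in the stem-labelled clones, whereas Mvk, Pmvk and Mvd, which turn mevalonate into isopentenyl diphosphate, fell. Hmgcs1 (ENSMUSG00000093930, chromosome 13, 119690462 to 119708086) stood at 18.7, 12.7 and 23.8 RPKM in the stem-labelled libraries, against 10.3, 7.88 and 8.97 RPKM in the other libraries. The groups did not overlap, and replicate 3 of the stem-labelled clones was the highest. The change was 0.92 ± 0.25 (adjusted p = 0.0123, limma). Gm48342, on the opposite strand, overlaps 12.1% of its exonic bases.

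Mvk (ENSMUSG00000041939, chromosome 5, 114444269 to 114460591), the mevalonate kinase, stood at 23.9, 14.1 and 14.3 RPKM in the stem-labelled libraries, against 61.2, 61.9 and 74.0 RPKM in the other libraries. Pmvk (ENSMUSG00000027952, chromosome 3, 89454541 to 89469013), the phosphomevalonate kinase, stood at 16.3, 15.9 and 14.96 RPKM in the stem-labelled libraries, against 81.0, 76.1 and 66.7 RPKM in the other libraries. Mvd (ENSMUSG00000006517, chromosome 8, 122433596 to 122443422), the decarboxylase that yields isopentenyl diphosphate, stood at 17.6, 17.1 and 15.04 RPKM in the stem-labelled libraries, against 145, 101 and 89.7 RPKM in the other libraries. For each of these enzymes every stem-labelled library lay below every other library by a wide margin. The mean level in the stem-labelled clones was 0.265 of that in the other clones for Mvk, 0.211 for Pmvk and 0.148 for Mvd. The log2 changes were -1.89 ± 0.25, -2.17 ± 0.20 and -2.66 ± 0.24, with adjusted p = 0.000377, 0.000119 and 0.000117 (limma).

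The remaining members of this arm did not pass. Acat2, the cytosolic thiolase that supplies acetoacetyl-CoA, averaged 34.5 ± 6.25 RPKM in the stem-labelled and 25.8 ± 7.93 RPKM in the other clones (SD, n = 3 each, change 0.43 ± 0.26). Of its 50-base stretches, 45.9% also occur in another gene, mostly Acat3, so its level is uncertain. Acat1, the mitochondrial thiolase, averaged 26.3 ± 5.49 RPKM in the stem-labelled and 23.8 ± 6.82 RPKM in the other clones. Idi1, the isopentenyl diphosphate isomerase, averaged 3.25 ± 1.51 RPKM in the stem-labelled and 3.93 ± 1.23 RPKM in the other clones, with 21.3% of its stretches shared with other genes. Ggps1, which makes the geranylgeranyl diphosphate used in prenylation, averaged 1.86 ± 0.454 RPKM in the stem-labelled and 3.59 ± 2.38 RPKM in the other clones.

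Fdps, the farnesyl diphosphate synthase at the branch between sterols and prenylation, was the lowest gene of the list in the stem-labelled clones. It was not tested, at 0.834, 0.760 and 1.37 RPKM in the stem-labelled libraries and 0.997, 0.363 and 0.590 RPKM in the other libraries. These values rest on 97 to 185 reads in the stem-labelled libraries and 19 to 50 reads in the others. Gm43738, on the same strand, shares 26.7% of its exonic bases, and 11.7% of the 50-base stretches of its longest transcript occur in other genes, so its count could have been split and its level is uncertain.

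Because the library scale cancels in a ratio of genes from the same library, Hmgcs1 was also set against the enzymes that follow it. The ratio of Hmgcs1 to Mvd was 1.07, 0.745 and 1.58 in the stem-labelled libraries, against 0.0705, 0.0780 and 0.10 in the other libraries. The ratio of Hmgcs1 to Pmvk was 1.15, 0.799 and 1.59 in the stem-labelled libraries, against 0.127, 0.103 and 0.135 in the other libraries. For Hmgcs1 over Mvk the ratio was 0.785, 0.904 and 1.66 in the stem-labelled libraries, against 0.168, 0.127 and 0.121 in the other libraries. The transcripts of the synthase and of the following enzymes were thus at like levels per length in the stem-labelled libraries, and the synthase was far below them in the others. These ratios were chosen after the levels were seen and were not tested. A dependence of the changes on gene length and GC content, described below, does not cancel in such a ratio. Hmgcs1 has 3233 bases and 43.1% GC, while Mvk, Pmvk and Mvd have 1713 to 2675 bases and 56.3% to 59.0% GC.

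**Figure D2:**
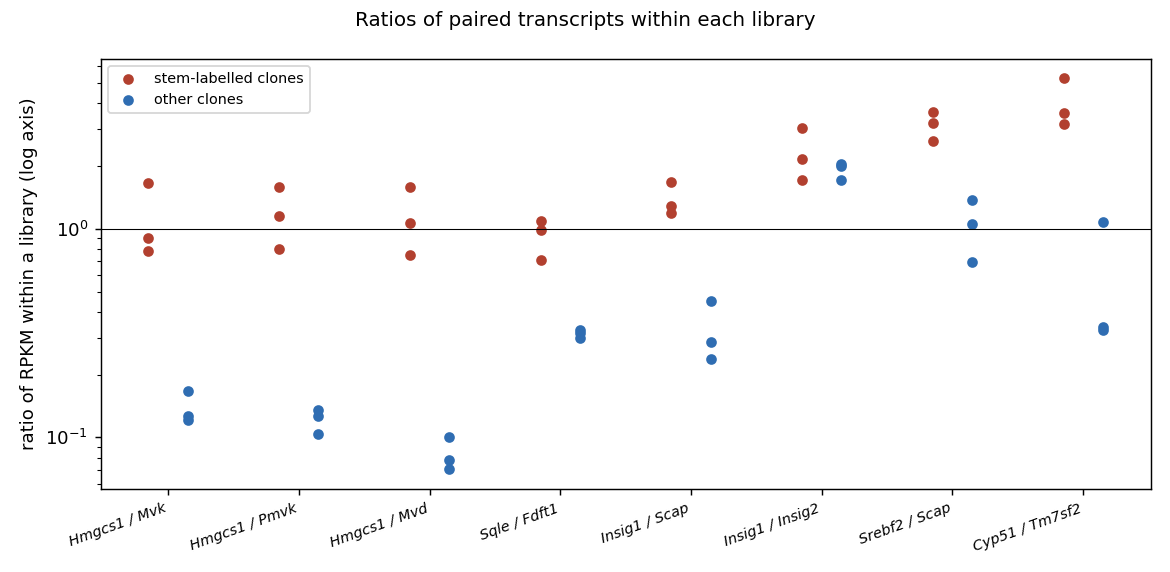
Ratio of the RPKM of 2 transcripts within each library (log axis), with 1 point per library of the stem-labelled and other clones. The ratios of Hmgcs1 to Mvk, Pmvk and Mvd lie at 0.745 to 1.66 in the stem-labelled libraries and at 0.0705 to 0.168 in the other libraries, while Insig1 over Insig2 overlaps.

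The promoters of these genes are shown because SREBP2 acts at short sterol regulatory elements, usually beside the CCAAT boxes bound by NF-Y. A promoter of RefSeq (build GRCm38.p6, 250 bases before to 50 after the start) was matched by symbol for 23 of the 28 genes. Capitals mark CCAAT and TCACNCCAC, a spelling of the sterol element, each on either strand. The sequences below read 5′ to 3′ on the gene's strand. They are those of Hmgcs1 (chr13:119690101-119690400, plus strand), Insig1 (chr5:28071162-28071461, plus strand), Mvk (chr5:114444019-114444318, plus strand) and Mvd (chr8:122443373-122443672, minus strand), 2 genes that rose and 2 that fell.
Hmgcs1: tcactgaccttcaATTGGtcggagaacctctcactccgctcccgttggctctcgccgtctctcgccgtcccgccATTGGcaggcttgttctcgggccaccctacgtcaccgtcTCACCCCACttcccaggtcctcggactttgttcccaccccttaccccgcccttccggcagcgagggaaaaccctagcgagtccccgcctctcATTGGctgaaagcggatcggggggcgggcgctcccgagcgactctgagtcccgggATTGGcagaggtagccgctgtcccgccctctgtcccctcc
Insig1: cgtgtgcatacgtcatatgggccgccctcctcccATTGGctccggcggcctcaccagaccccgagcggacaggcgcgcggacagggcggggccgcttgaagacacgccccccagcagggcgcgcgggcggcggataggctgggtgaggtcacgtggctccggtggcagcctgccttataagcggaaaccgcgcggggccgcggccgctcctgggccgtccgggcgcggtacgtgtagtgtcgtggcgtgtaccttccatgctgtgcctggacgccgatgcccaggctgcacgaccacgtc
Mvk: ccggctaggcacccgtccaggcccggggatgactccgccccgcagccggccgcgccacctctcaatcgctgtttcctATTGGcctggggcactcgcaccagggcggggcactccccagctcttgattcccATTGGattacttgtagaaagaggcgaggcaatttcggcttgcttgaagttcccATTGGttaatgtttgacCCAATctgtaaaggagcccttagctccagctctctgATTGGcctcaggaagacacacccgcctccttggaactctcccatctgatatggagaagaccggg
Mvd: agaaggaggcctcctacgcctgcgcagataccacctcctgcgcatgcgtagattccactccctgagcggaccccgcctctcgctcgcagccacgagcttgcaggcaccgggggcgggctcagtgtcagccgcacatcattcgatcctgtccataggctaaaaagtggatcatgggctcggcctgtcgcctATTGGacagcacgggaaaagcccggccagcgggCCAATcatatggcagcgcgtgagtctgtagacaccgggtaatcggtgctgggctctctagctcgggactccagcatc

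In this window Hmgcs1 held TCACCCCAC with its first base 137 bases before the start, and 4 CCAAT boxes, all on the opposite strand. Mvk held 5 CCAAT boxes, Mvd 2 and Insig1 1, and these 3 held no TCACNCCAC. Of the 23 genes, 1 held TCACNCCAC and 20 held CCAAT in at least 1 listed promoter, and the palindrome TCACGTGA was in none. Only exact TCACNCCAC was counted, so the count does not show that a promoter lacks a sterol element of another spelling. The Srebf2 promoter holds TCACCCCAT, which differs in the last base and was not counted. Among 7365 tested genes with a listed promoter, 1.36% held TCACNCCAC, 43.4% CCAAT and 2.32% TCACGTGA. CCAAT was present in 6 of 6 genes that rose, in 5 of 7 that fell and in 8 of 9 that did not pass, and in the 1 untested gene with a promoter, so it was found in genes of every kind of call.

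From squalene to cholesterol, 3 of 11 genes rose, 2 fell and 6 did not pass. These shares of 27.3% and 18.2% stand beside 29.9% higher and 25.4% lower of all tested genes. The genes of this arm that rose were Sqle, Cyp51 and Hsd17b7, and those that fell were Tm7sf2 and Ebp. Sqle (ENSMUSG00000022351, chromosome 15, 59315077 to 59331192), the squalene epoxidase and a rate-limiting enzyme of the pathway, stood at 25.3, 25.3 and 29.8 RPKM in the stem-labelled libraries, against 8.46, 8.26 and 11.6 RPKM in the other libraries. Its level was similar within each group and the groups lay far apart. The change was 1.42 ± 0.21 (adjusted p = 0.000585, limma), the largest increase among the 26 genes on the log2(RPKM + 1) scale, which understates low genes. As a ratio of mean RPKM, stem-labelled over other, Sqle stood at 2.84 and Stard4 at 3.57.

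Cyp51 (ENSMUSG00000001467, chromosome 5, 4081145 to 4104746), the lanosterol demethylase, stood at 20.5, 14.96 and 22.8 RPKM in the stem-labelled libraries, against 9.48, 7.79 and 10.6 RPKM in the other libraries. Hsd17b7, the ketosteroid reductase that removes methyl groups together with Nsdhl and Msmo1, stood at 4.48, 3.02 and 4.93 RPKM in the stem-labelled libraries, against 1.56, 0.976 and 1.89 RPKM in the other libraries. Neither gene overlapped between the groups. The changes were 0.98 ± 0.23 for Cyp51 and 1.05 ± 0.23 for Hsd17b7, with adjusted p = 0.00552 and 0.00376 (limma).

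Tm7sf2 (ENSMUSG00000024799, chromosome 19, 6062821 to 6068373), a sterol reductase that acts on the product of Cyp51, stood at 6.49, 4.17 and 4.33 RPKM in the stem-labelled libraries, against 28.9, 23.0 and 9.89 RPKM in the other libraries. Replicate 3 of the other clones was the lowest of its group and still lay above every stem-labelled library. The change was -1.75 ± 0.36 (adjusted p = 0.00285, limma). Vps51, on the same strand, overlaps 12.1% of the exonic bases of Tm7sf2 and averaged 8.99 ± 1.13 RPKM in the stem-labelled and 16.7 ± 4.06 RPKM in the other clones. Ebp, the sterol isomerase, stood at 14.3, 19.9 and 12.7 RPKM in the stem-labelled libraries, against 26.8, 31.4 and 29.1 RPKM in the other libraries, without overlap. Its change was -0.88 ± 0.23 (adjusted p = 0.00897, limma), and 0.02 ± 0.25 on the scale of reads summed over genes described below.

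The ratio of Cyp51 to Tm7sf2, which encode consecutive enzymes, was 3.16, 3.59 and 5.27 in the stem-labelled libraries, against 0.329, 0.339 and 1.07 in the other libraries. That ratio covers only these genes, and genes outside the list that may act at the same steps are not part of it. Lbr, which also encodes a sterol reductase and is outside the list, went the other way from Tm7sf2. Its change was 1.37 (adjusted p = 0.000586, limma). The ratio of Sqle to Fdft1, the squalene synthase just before it, was 0.709, 1.09 and 0.985 in the stem-labelled libraries, against 0.328, 0.300 and 0.316 in the other libraries. Fdft1 itself averaged 29.7 ± 6.21 RPKM in the stem-labelled and 30.0 ± 5.90 RPKM in the other clones. Fdft1 shares 774 exonic bases, 18.3% of its exons, with Ctsb on the opposite strand. Ctsb, a lysosomal protease gene, averaged 142 ± 16.3 RPKM in the stem-labelled and 37.4 ± 8.61 RPKM in the other clones. The strand of counting is not given in the sources used here, so reads of these 2 genes may not have been told apart.

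The other 5 genes of this arm that did not pass changed by -0.09 to 0.47. Lss, the lanosterol synthase, averaged 5.97 ± 1.22 RPKM in the stem-labelled and 5.05 ± 0.751 RPKM in the other clones. Msmo1 averaged 14.1 ± 3.26 RPKM in the stem-labelled and 13.5 ± 2.72 RPKM in the other clones, and Nsdhl 9.58 ± 1.24 RPKM in stem-labelled and 10.4 ± 2.12 RPKM in other clones. Sc5d, a sterol desaturase, stood at 8.49, 9.67 and 17.7 RPKM in the stem-labelled libraries and at 9.12, 6.90 and 10.5 RPKM in the other libraries. Dhcr7, the reductase of the last step to cholesterol, averaged 10.8 ± 2.45 RPKM in the stem-labelled and 7.70 ± 2.80 RPKM in the other clones.

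Of the 4 genes for SREBP2 and its regulators, 3 rose and 1 fell, beside 29.9% and 25.4% of all tested genes. Insig1 (ENSMUSG00000045294, chromosome 5, 28071363 to 28078662), a sterol-dependent anchor of SCAP and a target of SREBP2, stood at 25.8, 20.6 and 25.4 RPKM in the stem-labelled libraries, against 12.7, 8.44 and 7.16 RPKM in the other libraries. Insig2, its relative that is known to depend less on SREBP2, stood at 8.50, 12.0 and 11.7 RPKM in the stem-labelled libraries, against 6.23, 4.91 and 3.60 RPKM in the other libraries. Both genes were higher in every stem-labelled library than in any other library. The changes were 1.28 ± 0.24 for Insig1 and 1.0 ± 0.24 for Insig2 (adjusted p = 0.0019 and 0.00586, limma). The ratio of Insig1 to Insig2 was 3.03, 1.71 and 2.17 in the stem-labelled libraries and 2.04, 1.72 and 1.99 in the others, and these overlapped.

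Srebf2 (ENSMUSG00000022463, chromosome 15, 82147266 to 82205376), which encodes SREBP2, had the highest mean of the 28 genes in the stem-labelled clones. It stood at 57.0, 51.4 and 55.3 RPKM in the stem-labelled libraries, against 19.5, 37.2 and 34.5 RPKM in the other libraries. The groups did not overlap, and replicate 1 of the other clones lay below the other two of its group. The change was 0.87 ± 0.27 (adjusted p = 0.0213, limma). The call was lost without any 1 of the 3 stem-labelled libraries or without replicate 1 of the other clones, where the change was 0.84, 0.92, 0.86 and 0.59 and the adjusted p 0.0653, 0.0525, 0.0583 and 0.0512 (limma). It was also lost with a correction for gene length alone (0.50 ± 0.26, adjusted p = 0.139, limma).

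Scap (ENSMUSG00000032485, chromosome 9, 110333288 to 110384950), the sterol sensor that escorts SREBP2 to the Golgi, stood at 21.7, 16.03 and 15.2 RPKM in the stem-labelled libraries, against 28.05, 35.4 and 25.1 RPKM in the other libraries. The change was -0.71 ± 0.23 (adjusted p = 0.0259, limma), and 0.19 on the scale of reads summed over genes. This call was lost without replicate 2 or 3 of the stem-labelled clones or replicate 2 of the other clones, with changes of -0.66, -0.62 and -0.58 and adjusted p of 0.0974, 0.0873 and 0.0725 (limma). It was also lost with upper-quartile scaling (-0.46, adjusted p = 0.0886, limma). The ratio of Srebf2 to Scap was 2.62, 3.21 and 3.64 in the stem-labelled libraries, against 0.696, 1.05 and 1.37 in the other libraries. The ratio of Insig1 to Scap was 1.19, 1.28 and 1.67 in the stem-labelled libraries, against 0.453, 0.239 and 0.286 in the other libraries.

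Stard4, a soluble carrier that moves cholesterol between membranes and is a known target of SREBP2, stood at 5.76, 5.24 and 11.4 RPKM in the stem-labelled libraries, against 2.55, 1.64 and 2.08 RPKM in the other libraries. Replicate 3 of the stem-labelled clones was the highest, and the groups did not overlap. The change was 1.39 ± 0.28 (adjusted p = 0.00255, limma). Soat1, which esterifies cholesterol for storage in lipid droplets, stood at 4.25, 3.89 and 5.73 RPKM in the stem-labelled libraries, against 3.59, 3.64 and 2.62 RPKM in the other libraries. Its groups did not overlap either, but its change of 0.39 ± 0.21 did not pass (adjusted p = 0.141, limma).

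Nr1h2, which encodes LXR beta, a nuclear receptor for oxysterols, stood at 24.9, 28.9 and 21.8 RPKM in the stem-labelled libraries, against 45.1, 53.8 and 41.4 RPKM in the other libraries. The change was -0.87 ± 0.22 (adjusted p = 0.00841, limma), without overlap of the groups, and 0.05 on the scale of reads summed over genes. Mylip, a ubiquitin ligase induced by LXR that removes lipoprotein receptors, fell below the filter. It stood at 0.952, 1.24 and 0.923 RPKM in the stem-labelled libraries, against 0.274, 0.367 and 0.259 RPKM in the other libraries, from 289 reads in the stem-labelled and 32 reads in the other libraries in all. Every stem-labelled library thus lay above every other library for this gene, and with no filter on low values it was called higher (0.65 ± 0.11, adjusted p = 0.00858, limma).

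Over the tested genes, all 3 stem-labelled libraries lay above all 3 others for 9 of 26 and below them for 7 of 26. The shares over all tested genes were 35.7% above and 27.8% below. With 3 libraries against 3, an exact permutation test of 1 gene cannot give a two-sided p below 0.1.

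The order of levels within the pathway also differed between the kinds of clone. By mean RPKM, a level per length, Mvd, Pmvk and Mvk ranked 1, 2 and 3 of the 28 genes in the other clones. In the stem-labelled clones they ranked 12, 13 and 11, beside Scap and Ebp, and these 5 genes had means of 15.6 to 17.6 RPKM that differed by less than the spread of Mvk between libraries (SD 5.61 RPKM). Sqle ranked 4 among stem-labelled clones and 14 among other clones, and Insig1 7 and 15 in that order of groups. In the other clones Sqle, Insig1, Cyp51 and Hmgcs1 lay between 9.03 and 9.45 RPKM and did not differ beyond their spread. Fdps, Mylip, Ggps1, Hsd17b7, Soat1 and Idi1 were among the 7 lowest means in both kinds.

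Libraries of a group also differed in the pathway as a whole. Replicate 2 of the stem-labelled clones was the lowest of its group for 16 of the 26 tested genes, a position it held for 27.7% of all tested genes. Replicate 1 was the highest for 11 of 26 and replicate 3 for 12, against 36.4% and 32.9% of all tested genes. Replicate 3 was also the highest for 5 of the 8 genes called higher, without a share over all genes called higher. In the other clones replicates 1, 2 and 3 were the highest for 7, 9 and 10 of the 26 genes. Over all tested genes these positions were held for 32.2%, 39.0% and 28.8%.

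The direction of each change was checked on other scales, since the authors' library total differed from the reads in genes. When the values were rescaled to the reads summed over genes, the median change of all tested genes was 0.86, beside 0.11 as deposited, and that of the 26 pathway genes was 1.02. On that scale 17 of the 26 rose and 4 fell, while of all tested genes 71% were called, 58.7% higher and 12.3% lower. The 4 that fell were Mvk, Pmvk, Mvd and Tm7sf2, with changes of -0.98, -1.26, -1.74 and -0.91. The largest increases were those of Sqle (2.30), Insig1 (2.16) and Stard4 (2.12).

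Changes in these libraries also followed gene length and GC content. Over all tested genes the Spearman correlation of the change was 0.491 with gene length (n = 10097) and -0.107 with GC content (n = 10087), and over the 26 pathway genes it was 0.468 and -0.424. These are descriptions across genes, which share the same 6 libraries. The 8 genes called higher had lengths of 3093 to 5586 bases (median 4702) and the 7 called lower 1713 to 7443 bases (median 2675). Their median GC contents were 46.1% and 57.0%, beside 50.4% for all tested genes. Mvk, Pmvk and Mvd had 56.3%, 57.0% and 59.0% GC and lengths of 2675, 1713 and 1761 bases.

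With length and GC content regressed out, 13 of the 15 calls held in the same direction, none was called in the opposite direction, and Cyp51 and Nr1h2 no longer passed (0.48 and -0.42). In all, 8 of the 26 genes then rose and 8 fell, while of all tested genes 47.2% were called, 22.3% higher and 24.9% lower. The corrected changes were -1.57 for Mvk, -1.29 for Pmvk, -1.62 for Mvd and -2.24 for Tm7sf2. They were 0.93 for Hmgcs1, 0.64 for Sqle, 0.92 for Insig1, 0.68 for Insig2 and 0.95 for Stard4. Lss (-0.90) and Msmo1 (-0.53) were called lower and Sc5d (0.72) higher under the correction, whereas all 3 were called higher after the rescaling. With the replicate block added to the correction, Msmo1 was no longer called (adjusted p = 0.0706, limma). The correction would also remove a true difference between the kinds of clone that followed length or GC content.

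**Figure D3:**
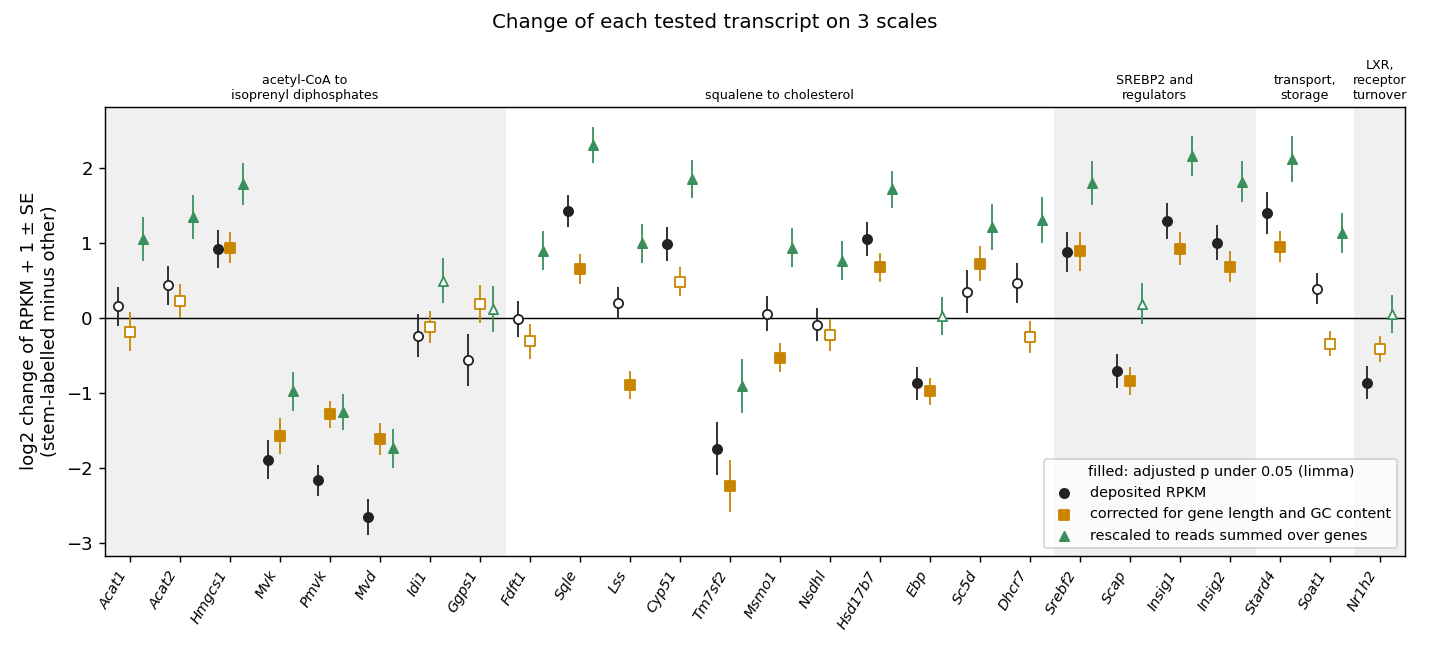
Log2 change of RPKM + 1 (stem-labelled minus other, ± SE) of the 26 tested genes as deposited, after the correction for gene length and GC content, and after rescaling to reads summed over genes, with filled symbols for an adjusted p under 0.05. Mvk, Pmvk, Mvd and Tm7sf2 are called lower on all 3 scales, and Hmgcs1, Sqle, Hsd17b7, Srebf2, Insig1, Insig2 and Stard4 are called higher on all 3, while a correction for length alone, not drawn, ended the call of Srebf2.

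**Figure D4:**
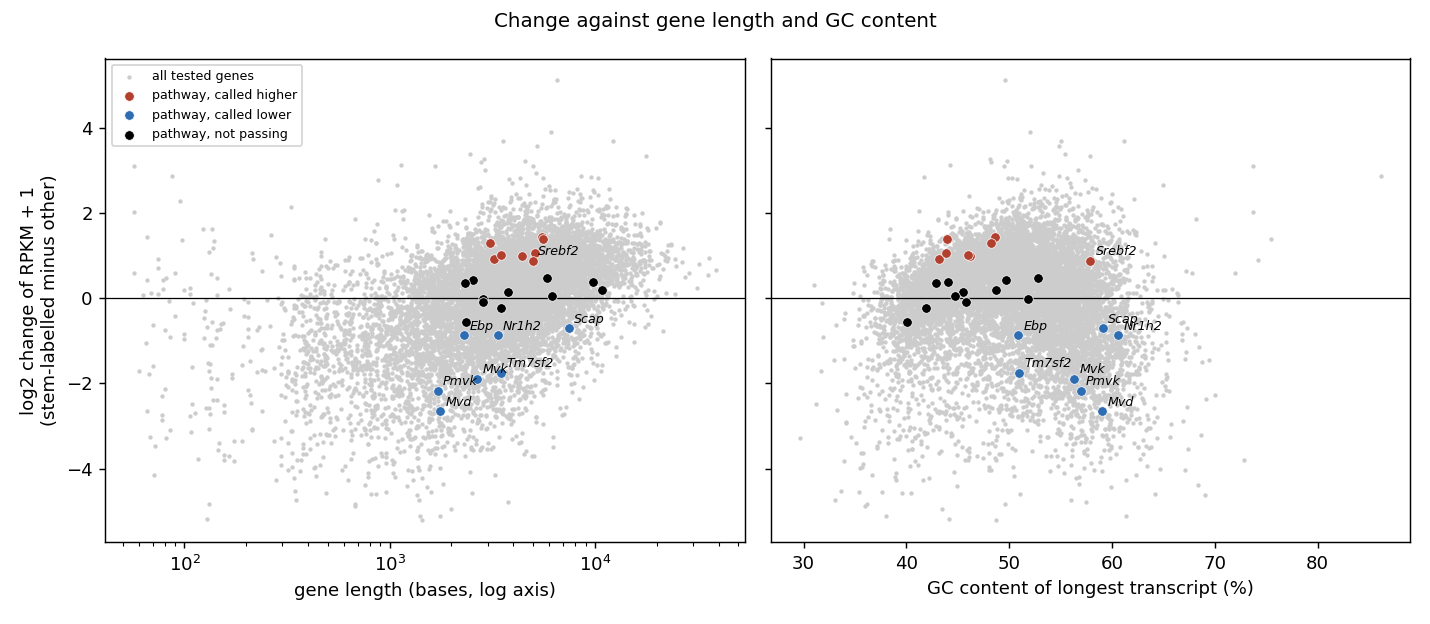
Log2 change of RPKM + 1 (stem-labelled minus other) against gene length in bases (left, log axis) and GC content in percent (right), with all tested genes in grey and the 26 pathway genes coloured by call. The genes called lower, which are named with Srebf2, have GC contents of 50.9% to 60.6%, and those called higher have 43.1% to 57.9%, with Srebf2 at the top.

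Of the 26 genes, 6 were called higher and 4 lower in each of the 19 settings in which they were tested. Of all tested genes, 10.3% were called higher and 9.79% lower by the same rule. The 6 were Hmgcs1, Sqle, Hsd17b7, Insig1, Insig2 and Stard4, and the 4 were Mvk, Pmvk, Mvd and Tm7sf2. Hsd17b7 and Stard4 were tested in 18 settings, since both fell under the filter of mean RPKM at least 5.

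Genes that border the pathway were read from the same fit, and their counts stand beside the shares of all tested genes given above. Those were 29.9% higher and 25.4% lower as deposited, 22.3% and 24.9% after the correction, and 58.7% and 12.3% on the scale of summed reads. Of 18 tested genes of fatty acid synthesis and SREBP1 targets, 11 rose and 1 fell, with a median of 0.63, and after the correction 3 rose and 2 fell, with a median of 0.18. Without replicate 1, 2 or 3 of the stem-labelled clones, 6, 7 and 7 of 17 tested genes rose. In those fits 2068, 2134 and 2114 of all tested genes rose, beside 3014 with none left out. The filter was applied again to the libraries kept, so these counts come from differing sets of tested genes. On the scale of summed reads 17 of the 18 rose. Gpam, an acyltransferase of glycerolipid synthesis, stood at 4.10 ± 0.513 RPKM in the stem-labelled and 1.47 ± 0.251 RPKM in the other clones (change 1.05 ± 0.19). After the correction its change was 0.51, and its call was lost with the replicate block added (adjusted p = 0.0619, limma). Elovl5, a fatty acid elongase, rose by 0.86 ± 0.21, and Acaca, the acetyl-CoA carboxylase, by 0.88 ± 0.23 but stood at -0.32 after the correction. Slc25a1, the mitochondrial citrate carrier that supplies acetyl-CoA units to the cytosol, was the gene that fell. It stood at 30.9, 22.8 and 22.3 RPKM in the stem-labelled libraries, against 105, 119 and 90.8 RPKM in the other libraries (-2.01 ± 0.23, adjusted p = 0.000208, limma).

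Of 14 tested genes of SREBP cleavage and sterol-regulated degradation, 9 rose and 2 fell (median 0.81). After the correction 5 rose and 2 fell (median 0.27), and on the scale of summed reads 11 rose and 1 fell. Mbtps1, the site-1 protease that first cuts SREBP2 in the Golgi, stood at 54.6, 52.3 and 58.8 RPKM in the stem-labelled libraries, against 16.9, 23.2 and 18.5 RPKM in the other libraries (1.47 ± 0.21, 0.81 after the correction). Erlin2, an endoplasmic reticulum protein of INSIG-dependent degradation, rose by 1.32 ± 0.20, and Sel1l, an adaptor of that degradation, by 1.36 ± 0.19 but missed the threshold after the correction. Aup1, a lipid droplet and degradation factor, fell to 14.6 ± 0.673 RPKM in the stem-labelled clones, against 55.1 ± 1.99 RPKM in the other clones (-1.85 ± 0.19).

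Of 17 tested genes that use isoprenyl diphosphates for prenylation, dolichol and ubiquinone, 4 rose and 3 fell (median 0.06). After the correction 3 rose and 5 fell (median -0.17), and the correction for length alone and limma-voom also gave 3 and 5. Of all tested genes, 2480 rose and 2493 fell with the length correction, and 2600 rose and 2872 fell with limma-voom. With replicate 1 of the stem-labelled clones left out 1 gene rose, and with replicate 1 of the other clones left out 2 of 16 rose. In these fits 2068 and 2706 of all tested genes rose, beside 3014 with none left out, again from differing sets of tested genes. On the scale of summed reads 10 rose and 2 fell. Rce1, the protease that trims prenylated proteins, stood at 25.5, 15.4 and 16.2 RPKM in the stem-labelled libraries, against 156, 97.4 and 90.1 RPKM in the other libraries (-2.52 ± 0.29). Rabggta, a subunit of the Rab prenyltransferase, averaged 12.4 ± 3.06 RPKM in the stem-labelled and 43.0 ± 10.05 RPKM in the other clones (-1.71 ± 0.25). Chm, the Rab escort protein, stood at 0.338 ± 0.171 RPKM in the stem-labelled and 1.36 ± 0.284 RPKM in the other clones. It passed the filter only through the other clones, where it was high.

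Of 15 tested genes of cholesterol transport inside the cell, 6 rose and 3 fell (median 0.31). After the correction 5 rose and 4 fell, and the median was -0.24, beside -0.024 for all tested genes. With the replicate block added to the correction 3 rose and 4 fell, while of all tested genes 1986 rose and 2266 fell. On the scale of summed reads 12 rose and 0 fell. Osbpl2 and Osbp, lipid exchangers of the oxysterol-binding family, rose by 1.71 ± 0.23 and 1.17 ± 0.20. After the correction these changes were 1.09 and 0.49. Osbpl2 averaged 13.9 ± 2.76 RPKM in the stem-labelled and 3.54 ± 0.909 RPKM in the other clones. Lipa, the lysosomal acid lipase that frees cholesterol from its esters, stood at 8.38, 6.76 and 9.19 RPKM in the stem-labelled libraries, against 2.63, 3.79 and 2.88 RPKM in the other libraries (1.15 ± 0.21, 1.35 after the correction). Scarb2, a lysosomal membrane protein that binds cholesterol, rose by 1.20 ± 0.18, and by 0.47 after the correction. With the replicate block added to the correction, Osbp and Scarb2 were no longer called (adjusted p = 0.0839 and 0.0757, limma). Of the oxysterol genes only Sult2b1, a sterol sulfotransferase, was tested. It averaged 8.13 ± 2.53 RPKM in the stem-labelled and 31.2 ± 18.4 RPKM in the other clones, and it fell (-1.71 ± 0.38, adjusted p = 0.00445, limma). Its change was -0.93 after the correction (adjusted p = 0.0298, limma). With a correction for length alone the call was lost (-0.76, adjusted p = 0.0777, limma).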

How the data were processed

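Total RNA of 6 samples was made into mRNA libraries by Illumina methods, per the labels. Tissue labels set the groups and titles the replicate numbers. What the authors deposited is RPKM per gene, for 19179 genes in each library. Bowtie2 2.0.6, TopHat2 2.0.9 and mm9 are named in the submitters' processing notes with no roles, and the counting program and strand are not given in the sources used here. GENCODE M21 held 99.6% of the identifiers, 80.6% at an identical start and end of GRCm38, the build used for positions. Spreadsheet-damaged symbols of 25 genes were repaired through identifiers. RPKM times gene length fell on whole multiples of a step per library (tolerance 0.01), from which reads were recovered, and 1 read per kilobase equals 0.0311 to 0.0993 RPKM.

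Differences were tested two-sided with limma 3.58.1 (R 4.3.3, trended variance) on log2(RPKM + 1), which understates changes of low genes. A gene needed an RPKM of 1 in 3 or more libraries, which left out 9082 genes, and p-values were adjusted by Benjamini-Hochberg across all 10097 tested. For the correction, natural splines (5 degrees of freedom each) of log2 length and GC content of the longest transcript were fitted per library to deviations from each gene's mean, for the 99.9% of tested genes with a GC value. Shared sequence means 50-base stretches of the longest transcript found in transcripts of another gene. All 28 genes are described, with at most 4 of each bordering list by smallest p, and 1 of these is not reported here. Genes, lists and alternatives were chosen with earlier results of these data known, and the code was tested on simulated data. Alternatives covered a replicate block, each library left out, upper-quartile scaling, rescaling to summed reads, no filter or a mean RPKM of 5, a pseudocount of 0.1, limma with robust or untrended variance, limma-voom on recovered reads, and correction for length alone or with GC content.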

Additional observations from a re-analysis of the deposited data

How the results depend on the processing

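Of the 15 calls among the 26 genes, none was called in the opposite direction under any of the settings. All 15 held with the replicate block, no filter, a pseudocount of 0.1, limma without the trend, limma with robust variance and limma-voom. Whether equal replicate numbers in the titles mark a shared experiment is not given in the labels, and the libraries were treated as unpaired. The deviations of same-numbered libraries from their group means correlated at -0.125, 0.026 and -0.085, and those of differently numbered ones at up to 0.186. The block left 8 higher and 7 lower, beside 2735 higher and 2477 lower of the 10097 tested genes. With the block and the length and GC correction together the counts were 8 and 7. Of the 10087 genes tested there, 1986 were higher and 2266 lower. Rescaling to summed reads gave 17 higher and 4 lower among the pathway genes, 5926 and 1245 among all, and a median of 1.02. The cause of the difference between the scales was not tested. A filter of mean RPKM at least 5, which tests fewer genes, gave 3477 changed and 1405 higher.

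The median of the pathway genes, 0.17, was 0.41 with upper-quartile scaling, 0.052 with limma-voom, -0.026 with the length correction and -0.21 with the length and GC correction, also with the block. Without 1 library it ranged from 0.080 to 0.29.

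The genes that turned sign were not called as deposited, except Ebp, Scap, Nr1h2 and Acaca. Upper-quartile scaling gave Fdft1 0.23 and Nsdhl 0.14. Rescaling gave Idi1 0.49, Ggps1 0.11, Fdft1 0.89 and Nsdhl 0.76, and Ebp 0.021, Scap 0.19 and Nr1h2 0.047. Limma-voom gave Msmo1 -0.086. The length correction gave Acat1 -0.021, Fdft1 0.042, Lss -0.57, Msmo1 -0.46, Dhcr7 -0.0091, Soat1 -0.35 and Acaca -6.51e-06. The length and GC correction, with or without the block, gave Acat1 -0.19, Ggps1 0.18, Lss -0.90, Msmo1 -0.53, Dhcr7 -0.26, Soat1 -0.35 and Acaca -0.32. Without 1 library Acat1 ranged from -0.010 to 0.36, Fdft1 from -0.16 to 0.14, Msmo1 from -0.12 to 0.19 and Nsdhl from -0.25 to 0.021.

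Depth limits Fdps and Mylip, which rest on 94 and 32 reads in all in the other libraries.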
